A study of Mus musculus with 4 samples.

Results

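The insulin receptor, its substrates, the forkhead box O (FOXO) transcription factors and genes under FOXO control were followed in bone marrow-derived macrophages (BMDMs). The 10 genes were Foxo1, Foxo3, Foxo4, Insr, Irs1, Irs2, Pik3ip1, Ccng2, Klf2 and Bcl6. They were taken by gene symbol, with earlier results of these data known, and they make up 10 of the 23545 genes with a symbol on the array. They were read by 16 of the 55681 non-control probes, and each of these probes was spotted 1 time on an array. Insr had 3 probes, Irs1, Foxo1, Foxo3 and Foxo4 had 2 each, and the other 5 genes had 1. The question was whether Torin1, an inhibitor of both mTOR complexes, left these genes at other levels than loss of Lamtor1, an anchor of mTOR complex 1 on the lysosome.

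The data are 4 Agilent 1-colour arrays on a shared slide, each with the RNA of 1 culture. Bone marrow cells of C57BL/6J mice aged 10 weeks were differentiated for 6 days with supernatant of L929 cells, a fibroblast line that secretes macrophage colony-stimulating factor, and stimulated for 2 days. M1 BMDMs were wild type and received 20 ng per ml of IFN-γ with 100 ng per ml of LPS. M2 BMDMs were wild type and received IL-4 at 50 ng per ml. Lamtor1-deficient BMDMs, labelled p18 (2400001E08Rik) -/-, received IL-4 at the same concentration. In the study's methods they came from Lamtor1 flox/flox mice that carry Cre under the LysM promoter, which is active in myeloid cells, so other cells of a culture can keep the gene. Torin1-treated BMDMs were wild type and received IL-4 at 50 ng per ml together with Torin1 at 250 nM. The number of animals behind each culture is not given in the sources used here.

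With 1 array per condition no difference has a replicate check, so no p-value is given, and the 4 arrays limit the precision of every value. Signals are given as multiples of the 75th percentile of their own array, which lay between 287 (M1) and 595 (M2). Between 50.9% and 55.4% of probes were well above background. A gene counts as higher or lower where its brightest probe differed by 2-fold or more, which is 1 on the log2 scale. The SD given with a ratio is technical. It comes from probes of like signal that were spotted 8 or more times on an array, and it covers error between spots but not between cultures. The probe for 2400001E08Rik, the older name of Lamtor1, read 51.2 on M1, 66.3 on M2, 1.55 on Lamtor1-deficient and 74.96 on Torin1-treated BMDMs. It was thus 42.7-fold lower on the Lamtor1-deficient array than on M2, as its label has it. All 7 macrophage markers (Emr1, Itgam, Csf1r, Cd68, Mertk, Cd14 and Fcgr1) were well above background on every array, with summed signals of 404 on M1, 690.4 on M2, 468 on Lamtor1-deficient and 543 on Torin1-treated BMDMs.

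Insulin and related growth factors signal through a receptor tyrosine kinase, which phosphorylates the adaptors IRS1 and IRS2 and thereby recruits PI3K. PI3K activates AKT with the help of mTOR complex 2, and AKT phosphorylates FOXO factors so that they leave the nucleus. When AKT is inhibited, FOXO factors return to the nucleus and raise the transcription of receptor and adaptor genes, a feedback known from several tissues. Mouse macrophages also use IRS2 as an adaptor of the IL-4 receptor.

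Each probe is a 60-base oligonucleotide, and its target is what a signal reports. The first 30 bases of the probes on which the comparison of Torin1 with Lamtor1 loss turns are shown here, 5′ to 3′ and all in lower case. Positions come from the array's own annotation, which uses mm9, and the exon or UTR they fall in was not derived here.

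Pik3ip1, A_51_P463428, chr11:3242107-3242166, plus strand: ccattcgtcatccaggaacttgagtggcat
Irs2, A_66_P102260, chr8:11004490-11004549, minus strand: tggagctttgccctctgccagcacctatgc
Irs1, A_52_P175242, chr1:82229692-82229751, minus strand: tacccccaattctgtctggtacttagaatt
Foxo1, A_51_P138044, chr3:52150183-52150242, plus strand: ttcggaatgacctcatggatggagatacct
Foxo4, A_55_P2113026, chrX:98454974-98455033, plus strand: gctaaggattggtggcaacacactcaagtg

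For Foxo3 the annotation ties the probes to different transcripts, and their readings differed. Both are therefore shown. The brighter probe is annotated to a cDNA clone and the other to the RefSeq transcript, and their starts lie 61678 bases apart on the minus strand of chromosome 10.

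Foxo3, A_55_P2129309, chr10:41967288-41967347: gtctatagccaagttttgtagagccagtgg
Foxo3, A_55_P2150896, chr10:41905610-41905669: taaaagcagaaggaaggtgttatatcagtt

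In the direct comparison, Torin1-treated BMDMs had 3 of the 10 genes higher than Lamtor1-deficient BMDMs and 0 lower. Those higher were Pik3ip1, an inhibitor of PI3K, Foxo4, and Irs2, the insulin and IL-4 receptor adaptor. Of all genes, 24.4% differed by 2-fold or more in this comparison, 22.8% of those well above background on both arrays, and 12.8% were higher after Torin1. All 10 genes were well above background on both arrays. The share of 30% past 2-fold was near that of all genes, so the number of genes past the threshold did not set the 10 apart. Their median log2 ratio was 0.79 with 6 genes above 0, and the median over all genes was −0.12. On the brightest probes, the 10 ratios kept their sign under every scaling, background correction, filter and floor tried, and Foxo3 and Insr had other probes of opposite sign.

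**Figure D1:**
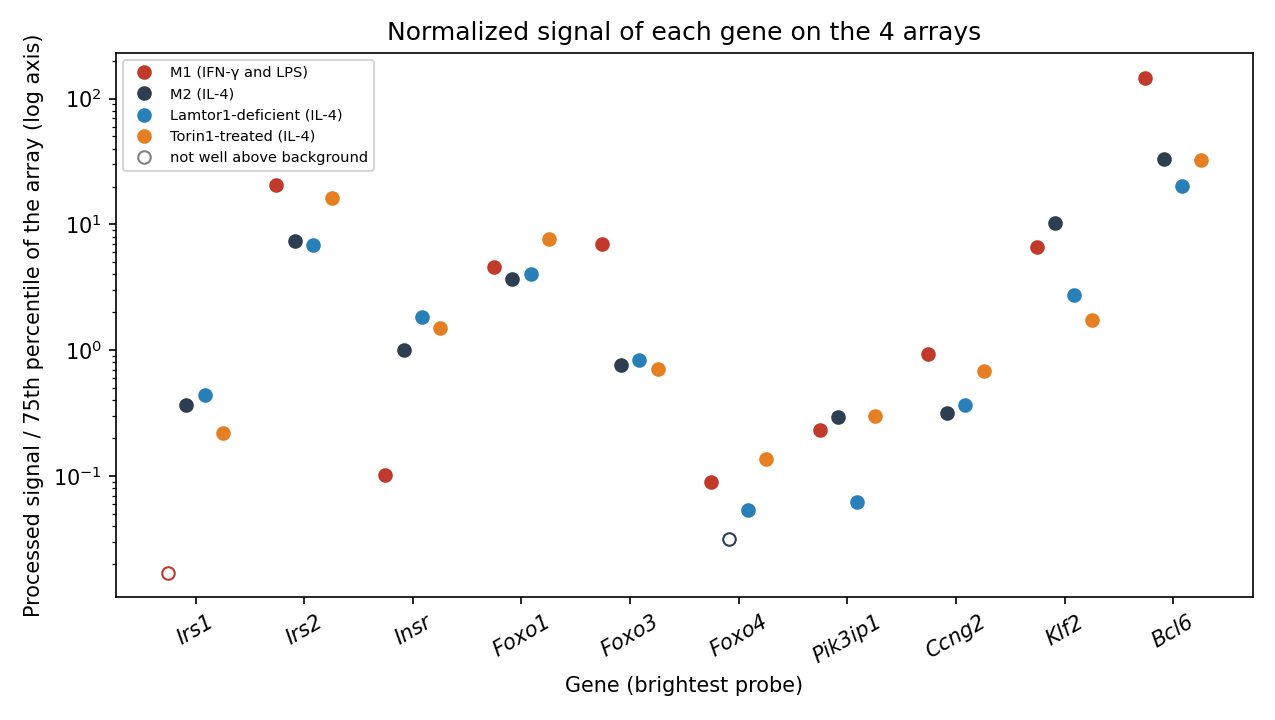
Normalized signal (multiples of the array's 75th percentile, log axis) of the brightest probe of each of the 10 genes on the M1, M2, Lamtor1-deficient and Torin1-treated arrays, 1 point per array and open where the probe was not well above background. Irs2, Foxo1, Foxo4 and Ccng2 stand higher after Torin1 than on the M2 and Lamtor1-deficient arrays, and Pik3ip1 stands apart on the Lamtor1-deficient array alone at 0.0625.

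Foxo1, the FOXO factor best known from liver and immune cells, read 4.57 on M1, 3.70 on M2, 4.02 on Lamtor1-deficient and 7.60 on Torin1-treated BMDMs. The Torin1-treated array was the highest, and the other 3 lay close together. The log2 ratio was 1.04 ± 0.077 (technical SD) over M2, just past 2-fold, and 0.92 ± 0.076 over Lamtor1-deficient BMDMs, just short of it. Lamtor1-deficient over M2 was 0.12. The other Foxo1 probe, 3106 bases away, read 1.30, 2.27, 2.79 and 3.66 in the same order of arrays. It was again highest after Torin1, with smaller log2 ratios of 0.69 over M2 and 0.39 over Lamtor1-deficient BMDMs. With arrays shifted to their median the ratio of the brighter probe over M2 was 0.79, under 2-fold.

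Foxo4, the X-linked FOXO factor, was highest after Torin1. Its brighter probe read 0.09004 on M1, 0.0319 on M2, 0.0541 on Lamtor1-deficient and 0.137 on Torin1-treated BMDMs, and on M2 it was not well above background. On this probe Torin1-treated BMDMs were at least 3.77-fold higher than M2, and Lamtor1-deficient BMDMs at least 1.49-fold higher. The log2 ratio of Torin1-treated over Lamtor1-deficient BMDMs was 1.34 ± 0.31 (technical SD). The other Foxo4 probe shares 52 of its 60 bases with this one and is no independent reading. It gave 1.47 in the direct comparison. Over M2 it gave at least 3.29-fold for Torin1 and only at least 1.19-fold for Lamtor1 loss. Under normexp background correction, which compresses dim signals, the direct log2 ratio was 0.64 and that of Torin1-treated over M2 BMDMs 0.91, both under 2-fold. That of Lamtor1-deficient over M2 BMDMs was 0.26 after this correction.

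Foxo3, the third of the FOXO factors, gave no single direction. Its brighter probe read 6.94 on M1, 0.767 on M2, 0.830 on Lamtor1-deficient and 0.703 on Torin1-treated BMDMs. On this probe the 3 IL-4-stimulated cultures lay close together and M1 stood far above them. The other probe read 0.178, 0.0828, 0.138 and 0.288 in the same order. Here Torin1-treated BMDMs were the highest, with a log2 ratio of 1.80 ± 0.24 over M2 and 1.06 ± 0.25 over Lamtor1-deficient BMDMs (technical SDs). The same ratios on the brighter probe were −0.13 and −0.24. Counted by the RefSeq probe in place of the brightest, Foxo3 would be a further gene higher after Torin1 in both comparisons.

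**Figure D2:**
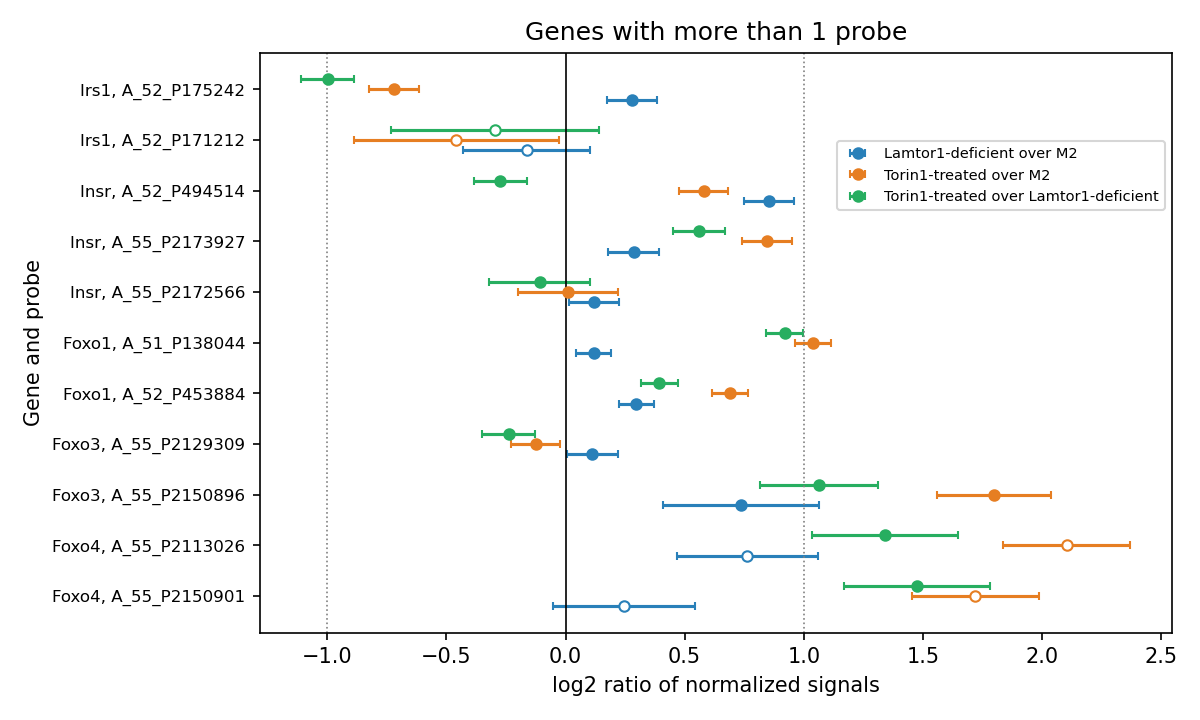
log2 ratios (x axis) for the 11 probes of the 5 genes with more than 1 probe, for Lamtor1-deficient over M2, Torin1-treated over M2 and Torin1-treated over Lamtor1-deficient BMDMs; bars are technical SDs, open points have an array not well above background and dotted lines mark 2-fold. The Foxo1 and Foxo4 probes lie on 1 side of 0 for Torin1 ratios, and those of Foxo3 and Insr lie on both sides of 0 in the direct ratio.

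Insr, the insulin receptor, was also read differently by its probes. The brightest read 0.101 on M1, 1.01 on M2, 1.83 on Lamtor1-deficient and 1.51 on Torin1-treated BMDMs. It was higher in both mTOR-related conditions than in M2 without reaching 2-fold, with log2 ratios of 0.85 ± 0.11 for Lamtor1 loss and 0.58 ± 0.10 for Torin1 (technical SDs). The direct ratio was −0.27. The next probe read 0.268, 0.267, 0.325 and 0.480, with the Torin1-treated array highest and a direct log2 ratio of 0.56. The third probe read 0.0839, 0.184, 0.20003 and 0.186, with M1 not well above background and the 3 IL-4-stimulated arrays within 0.12 of each other on the log2 scale. The probes also differed for M1, where the brightest gave a log2 ratio of −3.32 over M2 and the next gave 0.01. No direction for Insr after Torin1 against Lamtor1 loss held over all 3 probes.

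Irs2 read 20.4 on M1, 7.32 on M2, 6.85 on Lamtor1-deficient and 16.3 on Torin1-treated BMDMs. The M2 and Lamtor1-deficient arrays lay together, and the M1 and Torin1-treated arrays stood well above them. Torin1-treated BMDMs were 2.38-fold higher than Lamtor1-deficient BMDMs (log2 ratio 1.25 ± 0.076, technical SD) and 2.23-fold higher than M2 BMDMs. The log2 ratio of Lamtor1-deficient over M2 was −0.10 ± 0.074. With arrays shifted to their median the ratios of Torin1 were 0.94 over Lamtor1-deficient and 0.91 over M2, just under 2-fold.

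Irs1, the other main adaptor of the insulin receptor, went the opposite way. It read 0.364 on M2, 0.441 on Lamtor1-deficient and 0.221 on Torin1-treated BMDMs, and on M1 it was not well above background at 0.0171. The Torin1-treated array was the lowest of the IL-4-stimulated arrays. The direct log2 ratio was −0.998 ± 0.11 (technical SD), just short of 2-fold. It was −1.31 with arrays shifted to their median and −1.05 after quantile normalization. With the percentile over probes well above background it was −0.85, and after normexp correction −0.67, both under 2-fold. Over M2, under the 75th percentile of all probes, the log2 ratio was −0.72 for Torin1 and 0.28 for Lamtor1 loss. M1 was at least 5.55-fold lower than M2, although normexp correction gave a log2 ratio of −0.86, under 2-fold. The other Irs1 probe was well above background on 0 of the 4 arrays and gives no ratio. Irs1 and Irs2 thus differed in direction after Torin1, against M2 as well as against Lamtor1 loss.

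On the IL-4-stimulated arrays, markers of fibroblasts moved with Irs1. The summed normalized signal of Col1a1, Col1a2, Col3a1, Dcn and Lum was 15.9 on M1, 43.0 on M2, 55.3 on Lamtor1-deficient and 15.1 on Torin1-treated BMDMs. Of these 5 markers, 4 were lower on the Torin1-treated than on the Lamtor1-deficient array by more than 2-fold and well above background on both, and Lum was well above background on M2 alone. On M1 the markers were split, for Dcn read 9.27, above its 1.58 on M2, and Col1a1, Col1a2 and Col3a1 were lower than on M2. The part of these cells in the Irs1 ratio was not tested. In such bulk RNA, fewer cells of a type and less RNA per cell cannot be told apart.

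Pik3ip1 encodes a transmembrane protein that binds PI3K and lowers its activity. It read 0.232 on M1, 0.292 on M2, 0.0625 on Lamtor1-deficient and 0.298 on Torin1-treated BMDMs. The Lamtor1-deficient array stood alone, and the other 3 lay close together. Torin1-treated BMDMs were 4.76-fold higher than Lamtor1-deficient BMDMs, with a log2 ratio of 2.25 ± 0.25 (technical SD), the largest of the 10 genes. The difference lay on the side of Lamtor1 loss, for the log2 ratio over M2 was −2.22 ± 0.24 after Lamtor1 loss and 0.03 ± 0.10 after Torin1. The raw signal on the Lamtor1-deficient array was 33.5, close to 20.1, the lowest signal of any probe well above background there. Normexp correction gave 1.18 in the direct comparison and −1.12 for Lamtor1 loss over M2, still past 2-fold. After that correction the direct ratio of Irs2, 1.22, was the larger.

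Ccng2, an atypical cyclin found in resting cells and a known FOXO target, read 0.930 on M1, 0.316 on M2, 0.370 on Lamtor1-deficient and 0.679 on Torin1-treated BMDMs. The order of the arrays was that of Irs2 except that M2 and Lamtor1-deficient BMDMs changed places. The log2 ratio of Torin1-treated BMDMs was 1.103 ± 0.10 over M2 and 0.88 ± 0.11 over Lamtor1-deficient BMDMs (technical SDs), and that of Lamtor1-deficient over M2 was 0.23. The ratio over M2 was 0.85 with arrays shifted to their median and 0.90 after normexp correction.

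Klf2, a zinc finger factor that restrains activation of macrophages and T cells, was lower in both conditions. It read 6.64 on M1, 10.2 on M2, 2.74 on Lamtor1-deficient and 1.75 on Torin1-treated BMDMs. The log2 ratio over M2 was −1.89 ± 0.074 for Lamtor1 loss and −2.54 ± 0.094 for Torin1 (technical SDs), and the direct ratio was −0.65 ± 0.093. Among the 10 genes it was the only one past 2-fold in the same direction in both comparisons with the shared M2 array. Of 7 neutrophil markers listed, 6 were also lower in both. The summed normalized signal of S100a8, S100a9, Mpo, Ngp, Ltf and Camp was 90.5 on M2, 6.30 on Lamtor1-deficient, 5.87 on Torin1-treated and 4.41 on M1 BMDMs, and these 6 were well above background on the 3 IL-4-stimulated arrays. Elane, the other marker, went the opposite way after Lamtor1 loss, with 52.1 on M1, 12.4 on M2 and 18.6 on Lamtor1-deficient BMDMs. It was left out of the sum because its spot on the Torin1-treated array was marked as an outlier. Among the macrophage markers, Emr1 read 111.6 on M2, 18.8 on Lamtor1-deficient and 15.9 on Torin1-treated BMDMs, and Fcgr1 read 5.197, 0.167 and 0.213, both low on the same arrays as Klf2. The other 5 did not share this. Cd68 read 49.0, 71.97 and 79.8 and Mertk 4.92, 6.22 and 9.16, higher in both conditions. Itgam read 13.97, 7.94 and 15.5 and Cd14 20.4, 5.62 and 20.4, low after Lamtor1 loss alone, and Csf1r read 485, 357 and 402, lower in both by less than 2-fold. The part of these cells in the Klf2 ratios was not tested.

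Bcl6, a transcriptional repressor that limits inflammatory genes in macrophages, was lowest after Lamtor1 loss. It read 146.5 on M1, 32.8 on M2, 20.1 on Lamtor1-deficient and 32.6 on Torin1-treated BMDMs. Torin1-treated and M2 BMDMs lay together with a log2 ratio of −0.01 ± 0.077 (technical SD). The log2 ratio of Lamtor1-deficient over M2 BMDMs was −0.71 ± 0.074, and the direct ratio was 0.70 ± 0.076. Neither reached 2-fold.

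**Figure D3:**
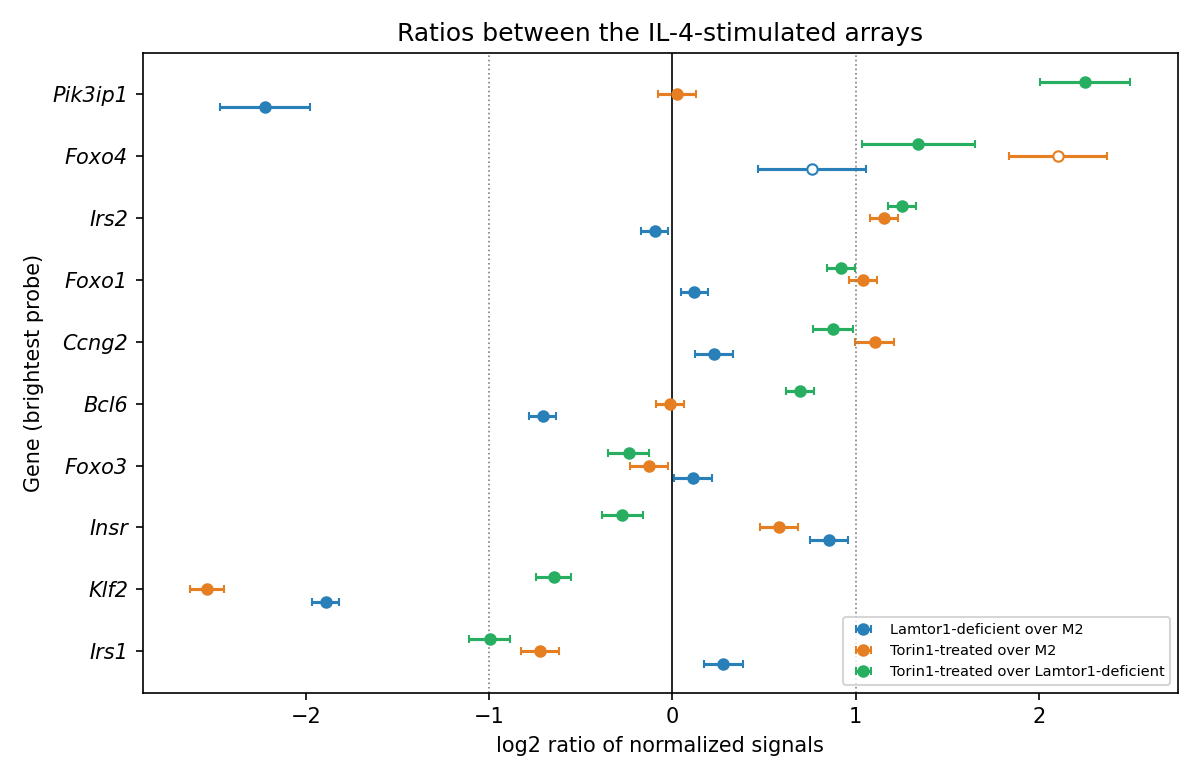
log2 ratios (x axis) of the brightest probe of the 10 genes, ordered by the ratio of Torin1-treated over Lamtor1-deficient BMDMs (green), with Lamtor1-deficient over M2 (blue) and Torin1-treated over M2 (orange). Bars are technical SDs, dotted lines mark 2-fold and open points have an array not well above background. Pik3ip1 at 2.25 and Irs1 at −0.998 are the ends of the direct comparison, and Klf2 is past −1 in both ratios over M2.

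Set side by side, the comparisons with the shared M2 array differed in which of the genes passed 2-fold. Torin1 had 4 higher (Irs2, Foxo1, Foxo4 and Ccng2) and 1 lower (Klf2), 5 of 10 in all, where 26.1% of all genes were past 2-fold and 14.3% were higher. Lamtor1 loss had 0 higher and 2 lower (Pik3ip1 and Klf2), where 17.6% of all genes were past 2-fold. Of the 4 genes higher after Torin1, Irs2, Foxo1 and Ccng2 had log2 ratios between −0.10 and 0.23 after Lamtor1 loss. For Foxo4 the bound was at least 1.49-fold higher on the brighter probe and at least 1.19-fold on the other. Because each ratio rests on the same M2 array, an error of that array enters both. The direct comparison is free of it.

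M1 differed from M2 by 2-fold or more in 7 of the 10 genes, where 49.9% of all genes were past 2-fold. Bcl6, Foxo3, Ccng2, Foxo4 and Irs2 were higher in M1, and Irs1 and Insr were lower. The largest ratio above 0 was that of Foxo3 on its brighter probe, at 3.18 on the log2 scale, and Bcl6 followed with 2.16. The median over all genes was 0.75 in this comparison under the 75th percentile and −0.07 under a shift to the median. After normexp correction Irs1 and Foxo4 were under 2-fold at −0.86 and 0.94, and Foxo4 was at 0.60 after quantile normalization. Under a shift to the median Irs2, Foxo4 and Ccng2 were at 0.66, 0.68 and 0.73, and Pik3ip1 and Klf2 were lower in M1 at −1.15 and −1.44.

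A wider list of 28 known FOXO targets, none among the 10, was read the same way. It was chosen with earlier results of these data known, which limits its comparison with all genes. Over all 28, which include genes not well above background, 6 were 2-fold or more higher after Torin1 than after Lamtor1 loss and 5 were lower (39.3%, beside 24.4% of all genes). Of the 21 that were well above background on both arrays, 5 were higher, 2 were lower and 14 lay between (33.3%, beside 22.8% of all such genes). The median log2 ratio was 0.42 over the 28, against −0.12 for all genes, and 0.46 over the 21, against −0.09. It was 0.19 after normexp correction, with all genes at 0.08, and 0.10 with a floor on dim signals, with all genes at −0.16. Pdk4, the kinase that shuts down pyruvate dehydrogenase in fasting, had the largest log2 ratio at 1.84, from 0.159 to 0.571. Catalase (Cat), which breaks down hydrogen peroxide, had 1.51, and Rictor, a core subunit of mTOR complex 2, had 1.497. Cdkn1b, an inhibitor of cyclin-dependent kinases, had 1.43, and Fbxo32, the muscle-atrophy ubiquitin ligase atrogin, had 1.27.

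These 5 differed in their levels after Lamtor1 loss. Pdk4 and Cat had log2 ratios of 0.36 and −0.71 over M2 there, and 2.20 and 0.80 after Torin1, and the other Cat probe had −1.42 and 1.03. Rictor read 1.18 on M1, 1.04 on M2, 0.971 on Lamtor1-deficient and 2.74 on Torin1-treated BMDMs, so the Torin1-treated array stood alone as it did for Foxo1. Cdkn1b read 20.2, 7.04, 5.75 and 15.5 in the same order, the arrangement of Irs2. Fbxo32 read 0.176, 0.292, 3.104 and 7.47 and was higher in both conditions than in M2, with log2 ratios of 3.41 for Lamtor1 loss and 4.68 for Torin1. The lower genes were Sesn1, a stress-induced inhibitor of mTOR complex 1, at −1.71 and Bcl2l11, a pro-apoptotic BCL2 relative, at −1.07. Sesn1 read 27.5 on M2, 23.3 on Lamtor1-deficient and 7.09 on Torin1-treated BMDMs, low on the Torin1-treated array and near M2 after Lamtor1 loss. In the ratio of Torin1-treated over M2, 7 of the 21 well above background on both arrays were higher and 3 lower (47.6%, beside 25.1% of all such genes). In that of Lamtor1-deficient over M2, 3 of 24 were higher and 3 lower (25%, beside 15.6%). Over all 28, dim readings included, the counts were 8 and 8 for Torin1 (57.1%, beside 26.1% of all genes) and 5 and 4 for Lamtor1 loss (32.1%, beside 17.6%).

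A list of 38 other components of insulin, PI3K, AKT and mTOR signalling was chosen with the same knowledge. It showed no shift of its median in the direct comparison, at −0.11 against −0.12 for all genes. Of the 36 well above background on both arrays, 4 were higher after Torin1, 3 were lower and 29 lay between (19.4%, near the 22.8% of all such genes). Phlpp1, a phosphatase that removes an activating phosphate from AKT, had a log2 ratio of 2.26 and read 1.73 on M2, 1.81 on Lamtor1-deficient and 8.68 on Torin1-treated BMDMs. Pik3cg, the catalytic subunit of the PI3K that answers to G-protein-coupled receptors, had 1.74, and Pik3r5, a regulatory subunit of the same enzyme, had 1.28. Igf1r, the receptor of insulin-like growth factors and the closest relative of Insr, had 1.34. It read 0.213 on M1, 0.982 on M2, 0.405 on Lamtor1-deficient and 1.02 on Torin1-treated BMDMs. The Lamtor1-deficient array was the lowest of the IL-4-stimulated arrays, and M1 was lower still.

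Of the lower components well above background on both arrays, Trib3, a pseudokinase that binds AKT, had −2.95. It read 1.76 on M2, 5.53 on Lamtor1-deficient and 0.717 on Torin1-treated BMDMs, on opposite sides of M2 in the 2 conditions. Socs1, an inhibitor of cytokine and insulin receptor signalling, had −1.49, and Ptpn1, the phosphatase that acts on the insulin receptor, had −1.14. Over M2, 5 of the 36 well above background on both arrays were higher and 5 lower after Torin1 (27.8%), and 5 of 36 were higher and 2 lower after Lamtor1 loss (19.4%), shares near those of all such genes, 25.1% and 15.6%.

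**Figure D4:**
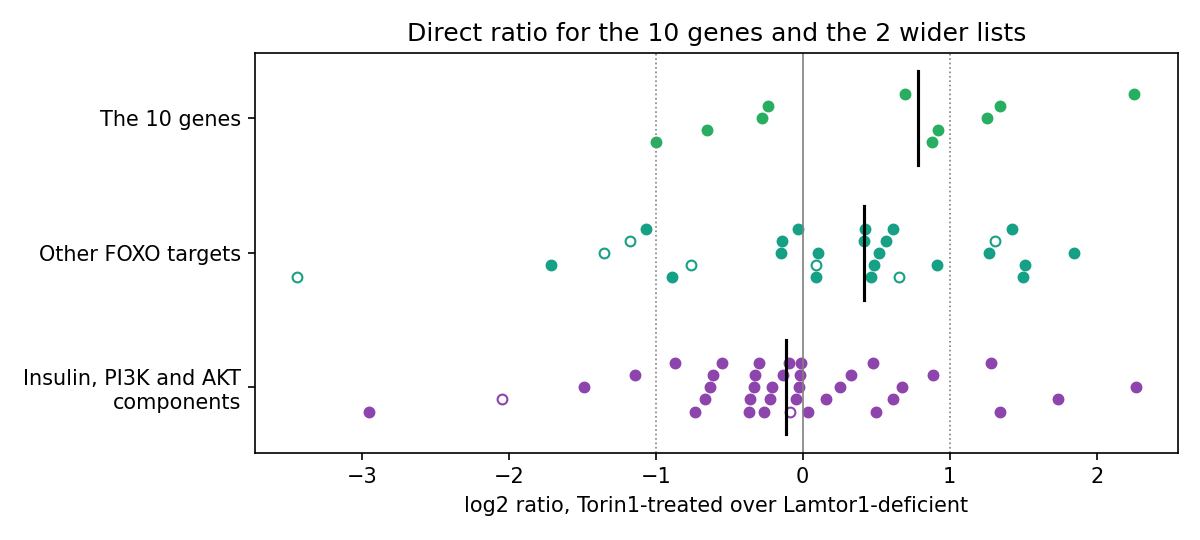
log2 ratio of Torin1-treated over Lamtor1-deficient BMDMs (x axis) for the brightest probe of each of the 10 genes, of 28 other FOXO targets and of 38 other components of the pathway, 1 point per gene and open where not well above background on both arrays. Vertical black lines are medians (0.79, 0.42 and −0.11), dotted lines mark 2-fold, and the height of a point within its row has no meaning.

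Pik3ip1, with the largest direct ratio, was set against the 12909 other genes well above background on all 4 arrays, by the Euclidean distance of their log2 signals after each gene was centred on its mean. The nearest were Upk1a, a uroplakin of the urothelium, at 0.21, A130019P10Rik at 0.39 and AI790442 at 0.51. Upk1a read 0.976 on M1, 1.05 on M2, 0.270 on Lamtor1-deficient and 1.25 on Torin1-treated BMDMs, low on the Lamtor1-deficient array alone. The likeness is over 4 arrays only.

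The promoters of the 10 genes were searched for the FOXO-binding words GTAAACA and CAAAACA, on both strands, in RefSeq sequences of GRCm38.p6 that reach from 250 bases before to 50 bases after each start. Both words end in AAACA and differ before it, so no site matches both. Of the 10 genes, 8 had at least 1 promoter there. Insr and Foxo4 had none and could not be searched. GTAAACA was in 3.65% of all 32851 promoters and in 0 of the 9 promoters of the other 8 genes. CAAAACA was in 6.28% of all promoters and in those of Irs1, Irs2 and Ccng2. The windows around the word in Irs2 and Ccng2, both higher after Torin1 over M2, and around that nearest the start of Irs1, which was not, are shown with the word in capitals. In Irs1 and Irs2 it stands on the other strand and reads TGTTTTG.

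Irs2, chr8:11008930-11008996, minus strand, GRCm38.p6: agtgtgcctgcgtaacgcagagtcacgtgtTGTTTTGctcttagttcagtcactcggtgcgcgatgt
Ccng2, chr5:93267527-93267572, plus strand, GRCm38.p6: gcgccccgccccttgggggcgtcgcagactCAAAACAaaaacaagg
Irs1, chr1:82291440-82291501, minus strand, GRCm38.p6: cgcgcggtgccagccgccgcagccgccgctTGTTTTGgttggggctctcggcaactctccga

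The word begins 37 bases before the start in Irs2, 16 in Ccng2 and 32 in Irs1, counted from the first base of the transcript's 5′ end. A match says only that these letters stand there. Pik3ip1, with the largest direct ratio, had neither word in this window.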

How the data were processed

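Per the deposited scanner files, the authors hybridized 4 samples to 4 arrays, and Feature Extraction (10.7.3.1 in the file headers, 10.5.1.1 in the submitters' notes) gave each spot an intensity after background subtraction, not normalized between arrays. Here, outlier spots were dropped, spots of a probe averaged, and each array divided by its 75th percentile over non-control probes, then set on the log2 scale. A gene with several probes was represented by the brightest, with the highest mean over the 4 arrays. A fold given as at least a value, against a probe not well above background, is a bound. It was taken against the lowest signal well above background on that array, or the probe's own reading where that was higher. Counts, medians and plotted points use the plain ratios. There was no test. The 10 genes, both lists, the markers and the 2-fold threshold were chosen with earlier results of these data known. Besides the 10 genes, 2400001E08Rik and the markers of cell types, the genes named were picked by rule. Per list they are up to 6 higher and 6 lower by the direct ratio, past 2-fold and well above background on both arrays. Named as well are the 3 genes most like the gene with the largest direct ratio. The series table holds the same intensities to within 0.497%. The procedure was tested on simulated data, with changes planted only in probes well above background and equal noise for all probes. That test does not cover dim probes or differences between cultures. Python 3.11.15 with NumPy 2.4.6 and pandas 2.3.3, and R 4.3.3 with limma 3.58.1, were used. Alternatives were a shift to the median, quantile normalization, a percentile over only the probes well above background, normexp with an offset of 50, a floor, outlier spots kept, the series table, filters on dim probes, the mean over a gene's probes and thresholds of 1.5-fold and 3-fold.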

Additional observations from a re-analysis of the deposited data

How the results depend on the processing

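Of the 10 genes, 3 were past 2-fold in the direct comparison of Torin1-treated with Lamtor1-deficient BMDMs. This became 5 under quantile normalization, 5 with the percentile taken over probes well above background, 8 at 1.5-fold and 1 at 3-fold. It was 2 after normexp correction, where Foxo4 fell under 2-fold, and 4 with outlier spots kept, where Irs1 passed it as lower. Under a shift to the median it stayed 3, but Irs2 left at 0.94 and Irs1 entered as lower at −1.31. Torin1-treated against M2 gave 5, which became 2 under a shift to the median, 3 after normexp correction and 2 at 3-fold. Lamtor1-deficient against M2 gave 2, which became 5 at 1.5-fold, and M1 against M2 gave 7, which became 4 at 3-fold. The median of the FOXO targets, 0.42, was 0.11 under a shift to the median, 0.29 under quantile normalization, 0.57 with the percentile over probes well above background, 0.19 after normexp correction and 0.10 with a floor on dim probes. That of the components, −0.11, was −0.42 under a shift to the median and 0.039 with the percentile over probes well above background, where its sign turned. The median of all genes in the direct comparison went from −0.12 to −0.43 under a shift to the median and to 0.08 after normexp correction. It went to 0.03 with the percentile over probes well above background, so its sign turned together with that of the components. Of 280 ratios of the 10 genes under alternatives other than filters, 204 moved by less than the technical SD, 76 moved by more and 0 ratios past 2-fold changed sign. Ratios short of 2-fold did turn. Foxo1 in M1 over M2 went from 0.30 to −0.52 under a shift to the median, and Pik3ip1 there from −0.33 to 0.05 after normexp correction. In Torin1-treated over M2, Pik3ip1 went from 0.03 to −0.22 under a shift to the median and Bcl6 from −0.01 to 0.07 with the percentile over probes well above background. A shift to the median, or a percentile over other probes, moves every log2 ratio of a comparison by the same amount. Under a shift to the median, the median of all genes in M1 over M2 went from 0.75 to −0.07. In Torin1-treated over M2 it went from −0.05 to −0.30. The cause of the move after normexp correction was not tested.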
